A study of Mus musculus with 5 samples.

Results

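At 32 promoters, Gfi1 and Lsd1 peaks of low score were found in every one of the 4 peak lists of this series. A site is a Gfi1 peak of tumor 39 that came within 1000 bp of the transcription start site (TSS) of a protein-coding transcript and overlapped a peak in each of the other 3 lists. The sites were chosen by the authors' peak score, since the highest overlapping peak had to lie in the lower 40% of its own list in all 4 lists. Of the 36836 Gfi1 peaks of tumor 39, 11103 met the position and overlap conditions and are called shared coding promoter peaks here, and 32 of these, or 0.288%, met the score condition too. At the other end, 7412 shared coding promoter peaks, or 66.8%, lay in the upper 40% of all 4 lists and are called high-scoring, and 3659 lay between these limits. Since the scores chose the sites, scores and percentiles are given below as a description without a test.

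The lists come from MG tumors, a mouse model of medulloblastoma, and address where Gfi1 and its cofactor Lsd1 sit in the genome of the tumor cells. Prominin1-positive, lineage-negative stem cells were sorted from the cerebella of C57BL/6 pups at postnatal days 5 to 7, were infected with retroviruses that encode Gfi1 and a stabilized point mutant of Myc, and grew into tumors in the cerebella of adult NSG mice, which lack lymphocytes. Chromatin of 2 MG tumors, numbered 39 (replicate 1) and 41 (replicate 2), was immunoprecipitated with an antibody to Gfi1 and, from the same tumors, with one to Lsd1. The input control is labelled as a pool of MGB (Myc/Gfi1b) tumors, whose reads were not used here. All 4 ChIP libraries thus share the retroviral Myc and Gfi1, so that the Gfi1 bound here includes protein made from a virus.

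Gfi1 is a zinc finger repressor that binds DNA at a core of letters AATCAC, and its N-terminal SNAG domain recruits Lsd1, a demethylase of histone H3 lysine 4 that works with the corepressor CoREST. Mammalian promoters fall into broad classes, with CpG-rich promoters at many housekeeping genes and CpG-poor promoters at many tissue-restricted genes. A ChIP-seq peak at a promoter can reflect the factor bound to its own letters in the DNA or held there through other proteins. In bulk tumor chromatin, a peak present in few cells and a peak of low occupancy in most cells cannot be told apart.

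Promoters of 4 of the sites are shown so that the range of CpG content described below can be seen, and each CG dinucleotide is in capitals. Each sequence runs from 250 bases before the TSS to 50 bases from it, in the direction of the gene, on mm10. F10 had the lowest CpG content of the 32 sites, Slc2a12 the highest among sites with the TSS inside the peak, Zfp551 the narrowest range of score percentile, and Ryr1 the highest mean percentile. Fbxo5, a high-scoring promoter, is shown as a contrast and was chosen after its values were seen, because its CpG ratio of 0.771 is near the median of the high-scoring promoters.
F10 (chr8:13037058-13037357, plus strand): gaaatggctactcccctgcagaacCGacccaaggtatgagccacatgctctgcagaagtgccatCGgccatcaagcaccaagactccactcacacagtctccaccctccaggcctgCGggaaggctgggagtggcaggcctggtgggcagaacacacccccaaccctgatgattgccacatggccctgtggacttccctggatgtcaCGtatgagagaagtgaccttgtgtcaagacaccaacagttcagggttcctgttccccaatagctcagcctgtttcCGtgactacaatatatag
Slc2a12 (chr10:22644761-22645060, plus strand): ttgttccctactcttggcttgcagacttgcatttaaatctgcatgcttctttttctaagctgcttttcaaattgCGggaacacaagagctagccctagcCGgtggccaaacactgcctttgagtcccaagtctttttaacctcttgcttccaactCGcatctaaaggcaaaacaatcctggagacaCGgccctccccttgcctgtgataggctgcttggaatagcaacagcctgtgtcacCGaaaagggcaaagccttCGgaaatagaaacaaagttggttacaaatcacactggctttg
Zfp551 (chr7:12422540-12422839, minus strand): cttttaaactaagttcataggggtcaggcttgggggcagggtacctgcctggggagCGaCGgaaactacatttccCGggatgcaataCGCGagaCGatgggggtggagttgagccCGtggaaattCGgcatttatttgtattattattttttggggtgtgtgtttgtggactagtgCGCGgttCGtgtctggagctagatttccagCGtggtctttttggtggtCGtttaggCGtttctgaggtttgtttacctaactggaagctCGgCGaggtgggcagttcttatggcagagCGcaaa
Ryr1 (chr7:29125102-29125401, minus strand): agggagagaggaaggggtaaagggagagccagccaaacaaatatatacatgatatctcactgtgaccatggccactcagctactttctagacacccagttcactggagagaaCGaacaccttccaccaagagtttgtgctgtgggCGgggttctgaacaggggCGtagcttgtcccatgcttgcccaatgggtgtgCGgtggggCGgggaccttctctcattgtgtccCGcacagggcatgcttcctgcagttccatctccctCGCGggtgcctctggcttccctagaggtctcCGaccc
Fbxo5 (chr10:5805551-5805850, minus strand): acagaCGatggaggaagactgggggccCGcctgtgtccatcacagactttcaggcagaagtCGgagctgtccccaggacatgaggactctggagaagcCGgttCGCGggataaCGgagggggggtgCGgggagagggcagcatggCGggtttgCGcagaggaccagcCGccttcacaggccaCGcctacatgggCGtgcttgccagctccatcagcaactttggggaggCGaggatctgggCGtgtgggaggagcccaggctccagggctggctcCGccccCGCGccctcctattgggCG
These 300 bases held 5 CG dinucleotides for F10, 6 for Slc2a12, 9 for Ryr1 and 17 for Zfp551, against 19 for Fbxo5. The CpG ratio used below is taken over a wider window of 500 bp on either side of the TSS, so that Slc2a12, with 6 CG dinucleotides here, still had a ratio of 0.688.

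The 4 lists held 36836 (Gfi1, tumor 39), 25078 (Gfi1, tumor 41), 30367 (Lsd1, tumor 39) and 33213 (Lsd1, tumor 41) peaks. Without read counts in the lists, the precision of a single peak is unknown, and the definition of the score is not given in the sources used here. The score was therefore used as a rank, and each value below is a percentile, the position of the peak among all peaks of its own list with 0 as the lowest score. The limit of the lower 40% was a score of 122 and 123 in the Gfi1 lists and of 144 and 140.0 in the Lsd1 lists of tumors 39 and 41. Low scores were uncommon among shared coding promoter peaks in any list, with 261 (2.35%) and 1402 (12.6%) of the 11103 in the lower 40% for Gfi1 (tumor 39, then 41). For Lsd1 these were 585 (5.27%) and 223 (2.01%). No list was below its limit at 9418 peaks, 1 list at 1093, 2 lists at 430 and 3 lists at 130, before the 32 that were below it in all 4.

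At the limit itself the values ran on without a gap. Just inside it, the Ryr1 site reached percentile 39.9 for Gfi1 in tumor 39 and the Lrrc71 site 39.7 in the same list. Just outside it, a peak at Cox7b stood at 40.01 for Gfi1 in tumor 39, and a peak at Arid4a had its highest value, 40.4, for Lsd1 in tumor 39.

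Within the 32 sites, the median percentile of the Gfi1 peaks was 29.2 in tumor 39 (range 1.84 to 39.9) and 14.0 in tumor 41 (0.869 to 39.2). For Lsd1 it was 23.8 (0.408 to 38.1) and 24.2 (5.57 to 39.2) in the same order of tumors. Gfi1 of tumor 39 stood above Gfi1 of tumor 41 at 25 of the 32 sites, with a median difference of 11.5 points. The same order held at 78.0% of all shared coding promoter peaks, and the list of tumor 41 is the shorter of the Gfi1 lists. For Lsd1, tumor 39 stood above tumor 41 at 16 of the 32 sites (50%), against 33.0% of all shared coding promoter peaks. Within tumor 39, Gfi1 stood above Lsd1 at 20 of the 32 sites (62.5%, against 69.9% of shared peaks), and within tumor 41 at 10 (31.2% against 27.2%). Over the 2 tumors, the SD of a site's percentile had a median of 11.2 points for Gfi1 and 6.20 points for Lsd1. That the sites were low in every list was set by the rule, which also limits how far their percentiles can differ. Within the lower 40%, a site's place differed between libraries by 24.7 points in the median (5.52 to 35.3). No list supplied the highest value at all sites, which came from Gfi1 at 14 sites in tumor 39 (43.8%) and 4 in tumor 41 (12.5%), against 50.1% and 11.7% of shared peaks. It came from Lsd1 at 8 sites in tumor 39 (25%) and 6 in tumor 41 (18.8%), against 16.5% and 21.7%.

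**Figure D1:**
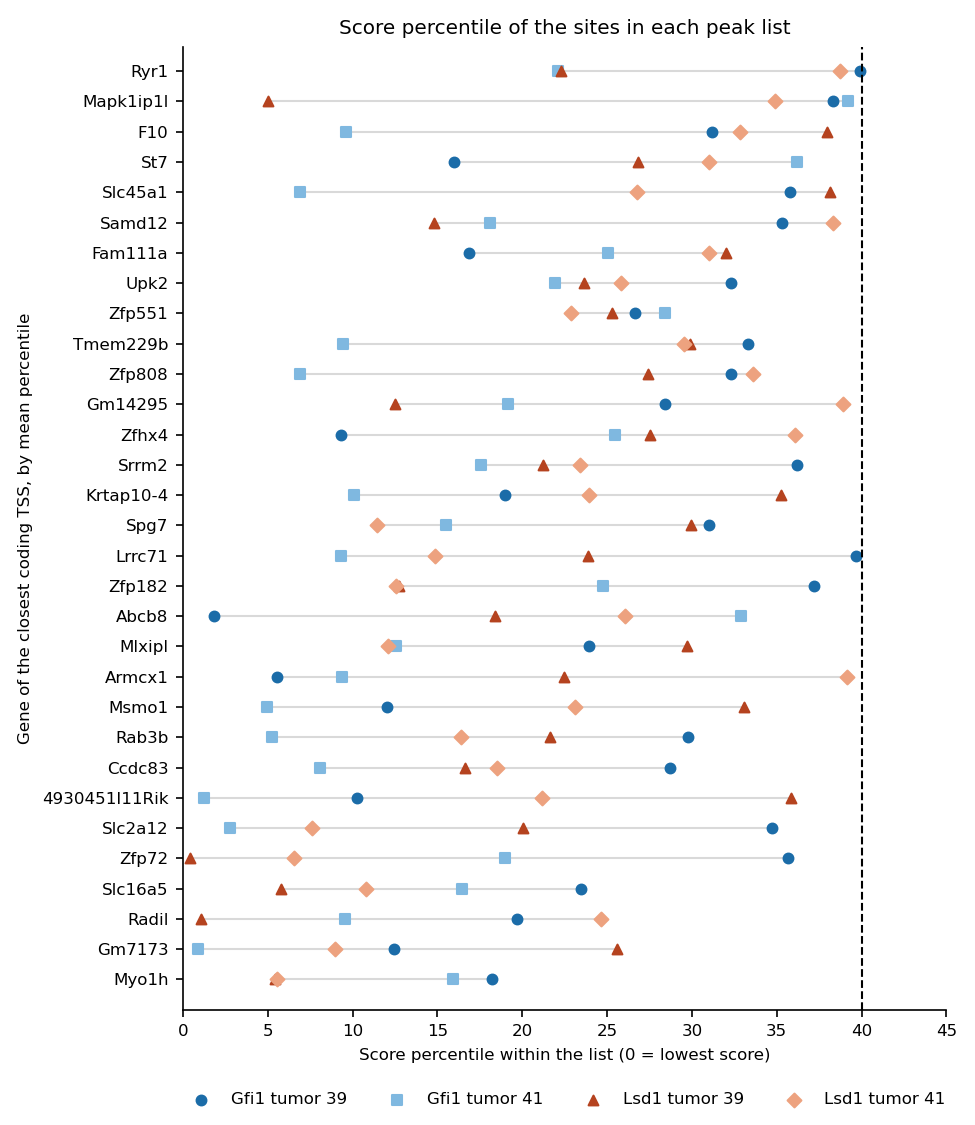
Score percentile (x axis, 0 is the lowest score of a list) of 31 of the 32 sites (y axis, ordered by the mean over the lists) in the 4 lists, with circles and squares for Gfi1 and triangles and diamonds for Lsd1 in tumors 39 and 41, grey lines for the range and a dashed line at the limit of 40. Zfp551 has the shortest line, 5.52 points, and Zfp72 the longest, 35.3 points.

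The largest group with a shared name was that of the Zfp zinc finger genes, with 4 sites. Such genes encode C2H2 zinc finger proteins, many of which silence transposable elements. The Zfp72 site (chr13:74390194-74391193) was at percentile 35.7 and 19.0 for Gfi1 in tumors 39 and 41, and at 0.408 and 6.55 for Lsd1. Its Lsd1 peak in tumor 39 was thus among the lowest of that list, while its Gfi1 peak in tumor 39 lay in the upper part of the allowed range. The X-linked Zfp182 site (chrX:21061642-21062636) showed a like order, with Gfi1 at 37.2 and 24.7 and Lsd1 at 12.7 and 12.6. At Zfp808 (chr13:62129653-62130397) the Gfi1 percentiles were 32.3 and 6.90, and those of Lsd1 were 27.4 and 33.6. The Zfp551 site (chr7:12421922-12422941) held its place in all lists, at 26.7 and 28.4 for Gfi1 and 25.3 and 22.9 for Lsd1. Of the 391 genes with Zfp symbols, 270 had a shared coding promoter peak, 4 of them (1.48%) at these sites and 153 (56.7%) in the upper 40% of all lists, beside 0.316% and 71.0% over all coding genes with such a peak. The gene lists were chosen with earlier results of these data known, and this share rests on 4 sites, so it is only a description. Some Zfp genes have near-identical copies, so that reads placed at them are uncertain.

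Transporter and vesicle genes come next, from the gene lists of solute carriers and Rab genes, with Abcb8 added from neither list. Slc16a5 (chr11:115462049-115463014), of the monocarboxylate transporter family, had Gfi1 at percentile 23.5 and 16.4 and Lsd1 at 5.79 and 10.8 in tumors 39 and 41. The TSS of a second gene, Gm11695, lay within 1000 bp of this peak. Slc2a12 (chr10:22644535-22645687), a facilitative glucose transporter, had Gfi1 at 34.7 and 2.74 and Lsd1 at 20.1 and 7.59, so that tumor 41 was low for both factors. Slc45a1 (chr4:150651588-150652471), a sugar transporter of the brain, had Gfi1 at 35.8 and 6.88 and Lsd1 at 38.1 and 26.7, again with the lower value of each factor in tumor 41. These were the sites among 144 solute carrier genes with a shared coding promoter peak (2.08%), and 88 (61.1%) were in the upper 40% of all lists. Over all coding genes with such a peak these shares were 0.316% and 71.0%. Rab3b (chr4:108878741-108879758), a small GTPase of regulated exocytosis, had Gfi1 at 29.8 and 5.25 and Lsd1 at 21.6 and 16.4. It was the single site among 43 Rab genes with such a peak (2.33%), and 31 (72.1%) were in the upper 40% of all lists. The solute carrier and Rab lists were chosen in the same way as the Zfp list, and their shares rest on few sites. Abcb8 (chr5:24401521-24402378), an ATP-binding cassette transporter of the inner mitochondrial membrane, went the other way for Gfi1, with 1.84 in tumor 39 and 32.9 in tumor 41, and had Lsd1 at 18.4 and 26.1.

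F10, Upk2 and Krtap10-4 are known for expression in tissues other than the brain, and Ryr1 and Myo1h are described with them. This grouping, like those below, only orders the description. The share of such genes among all shared coding promoter peaks was not counted, and expression was not analysed. F10 (chr8:13035727-13037397) encodes coagulation factor X of the liver and had Gfi1 at percentile 31.2 and 9.60 and Lsd1 at 37.9 and 32.8 in tumors 39 and 41. Upk2 (chr9:44454296-44455323) encodes a uroplakin of the bladder lining and varied little, with Gfi1 at 32.3 and 21.9 and Lsd1 at 23.6 and 25.8. Krtap10-4 (chr10:77826092-77827426), a keratin-associated protein of hair and the shortest gene of the 32 at 981 bp, had Gfi1 at 19.0 and 10.1 and Lsd1 at 35.3 and 24.0. Their tissues differ widely, and that none of them is the brain follows from the grouping. Ryr1 (chr7:29124653-29126207), the calcium release channel of skeletal muscle, had the highest mean percentile of the 32 sites, 30.8, with Gfi1 at 39.9 and 22.1 and Lsd1 at 22.3 and 38.7. Myo1h (chr5:114314880-114315645), an unconventional class I myosin, had the lowest mean, 11.3, with Gfi1 at 18.2 and 15.9 and Lsd1 at 5.40 and 5.57. On the CpG scale explained below, the ratios of these 5 promoters were 0.103 for F10, 0.224 for Upk2, 0.133 for Krtap10-4, 0.411 for Ryr1 and 0.461 for Myo1h, so that 3 lay below and 2 above the median of the 32 sites, 0.379.

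Genes of mitochondria and of lipid and sugar metabolism formed the next group. Spg7 (chr8:123061489-123062325), the mitochondrial protease paraplegin, had Gfi1 at percentile 31.0 and 15.5 and Lsd1 at 29.97 and 11.5 in tumors 39 and 41. It had the lower value of each factor in tumor 41. Armcx1 (chrX:134718257-134718939), which acts in mitochondrial transport in axons, had the lower value of each factor in tumor 39, with Gfi1 at 5.55 and 9.39 and Lsd1 at 22.5 and 39.2. Msmo1 (chr8:64734646-64735549), a sterol oxidase of cholesterol synthesis, had Gfi1 at 12 and 4.97 and Lsd1 at 33.1 and 23.1. Mlxipl (chr5:135132831-135134948) encodes the glucose-responsive factor ChREBP, had the widest Gfi1 peak of the 32 in tumor 39 at 2118 bp, and stood at 23.9 and 12.6 for Gfi1 and 29.7 and 12.1 for Lsd1.

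Nuclear, signalling and adhesion genes followed. Srrm2 (chr17:23806522-23807605), a scaffold of nuclear speckles with a role in splicing, had Gfi1 at percentile 36.2 and 17.6 and Lsd1 at 21.2 and 23.4 in tumors 39 and 41. Zfhx4 (chr3:5220508-5221228), a zinc finger homeobox factor, had Gfi1 at 9.33 and 25.5 and Lsd1 at 27.5 and 36.1. Fam111a (chr19:12572962-12573743), a protease that acts at replication forks, had Gfi1 at 16.8 and 25.1 and Lsd1 at 32.04 and 31.0. At Zfhx4 and Fam111a the Gfi1 percentile was thus the higher in tumor 41, against the order at most sites. Mapk1ip1l (chr14:47310406-47311110) had Gfi1 at 38.3 and 39.2, close to the limit in both tumors, and Lsd1 at 5.02 and 34.9. St7 (chr6:17748863-17749620) had Gfi1 at 16.0 and 36.2 and Lsd1 at 26.8 and 31.0. Radil (chr5:142509102-142510155), an effector of the small GTPase Rap in cell adhesion, had Gfi1 at 19.7 and 9.56 and Lsd1 at 1.04 and 24.6. For Mapk1ip1l and Radil the Lsd1 peaks of the 2 tumors were farther apart than the Gfi1 peaks.

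The remaining 7 sites lay at genes of little known or unassigned function. Samd12 (chr15:53901675-53902952) had Gfi1 at percentile 35.3 and 18.1 and Lsd1 at 14.8 and 38.3 in tumors 39 and 41. Lrrc71 (chr3:87748022-87749169) had Gfi1 at 39.7 and 9.31 and Lsd1 at 23.9 and 14.9. In Lrrc71 the order of the tumors was the same for both factors, and in Samd12 it was opposite. Tmem229b (chr12:78983704-78984649) had Gfi1 at 33.3 and 9.45 and Lsd1 at 29.9 and 29.6. Ccdc83 (chr7:90265275-90266230) had Gfi1 at 28.7 and 8.07 and Lsd1 at 16.6 and 18.5. Both varied mainly in Gfi1. The predicted gene Gm14295 (chr2:176798373-176799267) had Gfi1 at 28.4 and 19.1 and Lsd1 at 12.5 and 38.9, and 43.6% of its peak was repeat sequence, the most of the 32. The X-linked predicted gene Gm7173 (chrX:79516966-79517760) had Gfi1 at 12.5 and 0.869 and Lsd1 at 25.6 and 8.94. The short gene 4930451I11Rik (chr7:126831674-126832675) had Gfi1 at 10.3 and 1.26 and Lsd1 at 35.9 and 21.2. At these last 2 sites the Gfi1 peak of tumor 41 was near the bottom of its list.

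The peaks of the 4 lists shared some DNA at each site. A stretch common to all 4 peaks was present at 32 of 32 sites, with a median length of 774 bp (248 to 1528 bp) and a median of 80.9% of the Gfi1 peak of tumor 39. Such a stretch was present at 98.9% of all shared coding promoter peaks, with a median of 88.5% of the peak, and the high-scoring sites had a median of 92.6%. At Armcx1 the common stretch was shortest, 248 bp or 36.3% of that peak. The peaks were narrow, with a median width of 980.5 bp and 1016 bp for Gfi1 and of 1144 bp and 1104 bp for Lsd1 in tumors 39 and 41. These widths were close to the medians of all peaks in the lower 40% of the same lists, 957 bp, 1073 bp, 1126 bp and 1005 bp, and below those of the whole lists, 1443 bp, 1596 bp, 1765 bp and 1606 bp. Width is called from the same reads as the score, so it gives no independent support.

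The TSS lay inside the peak in all 4 lists at 21 of the 32 sites (65.6%, exact 95% binomial interval 46.8 to 81.4%), against 76.6% of the sites between the limits and 96.1% of the high-scoring sites. These intervals cover counting error only, since sites share their libraries. A TSS falls inside a wide peak more easily, and the Gfi1 peaks of tumor 39 had median widths of 980.5 bp at the sites and 2360 bp at high-scoring ones. The median distance from the midpoint of that peak to the TSS was alike, 212.5 bp at the sites, 226 bp between the limits and 200 bp at high-scoring sites. At 9 sites the TSS lay beside the Gfi1 peak of tumor 39, by 178 bp at 4930451I11Rik up to 923 bp at Abcb8. The peaks of Msmo1, Spg7 and Srrm2 ended upstream of the TSS in every list, and those of Abcb8 began downstream of it in every list. Taking midpoints along the gene, 13 of the 32 lay upstream of the TSS (40.6%, against 34.3% of all shared coding promoter peaks). By the annotation, the midpoint lay in an intron at 10 sites (31.2%, against 34.0% of shared peaks), in an untranslated exon at 9 (28.1% against 28.8%), in a coding exon at 5 (15.6% against 16.3%), in a noncoding exon at 3 (9.38% against 6.78%) and outside genes at 5 (15.6% against 14.2%).

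**Figure D2:**
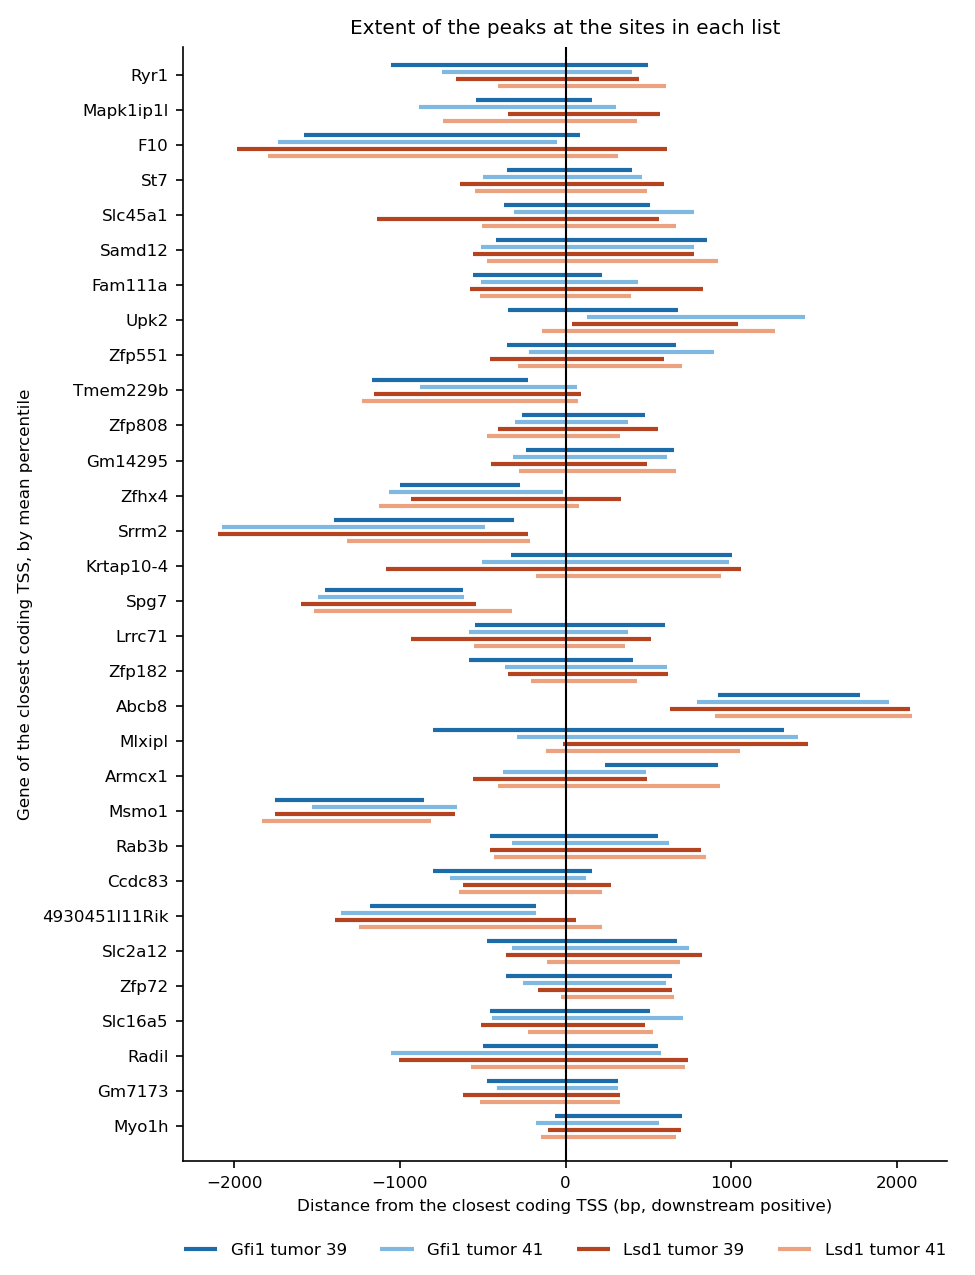
Extent of the highest overlapping peak in each of the 4 lists (coloured lines) at 31 of the 32 sites (y axis, ordered by mean percentile), in bp from the closest coding TSS with downstream positive (x axis). Most lines cross the TSS at 0, while those of Msmo1, Spg7, Srrm2 and Abcb8 lie to 1 side of it in all 4 lists.

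At 11 of the 32 sites the most 5′ coding TSS of the gene was more than 1000 bp from the peak, and these are called internal sites. The other 21 sites (65.6%, exact 95% binomial interval 46.8 to 81.4%) were counted as at the most 5′ coding TSS. At 6 of these 21 the closest coding TSS was not the most 5′ one itself but lay near it, by 30 bp at Zfp808 up to 162 bp at Zfp551. The share at the most 5′ coding TSS was 79.7% of the sites between the limits, which the interval includes, and 92.4% of the high-scoring sites. It was 64.1% of the 379 shared peaks whose highest percentile over the lists was from 40 to 60. The distance from the site's TSS to the most 5′ one had a median of 24149 bp and was shortest, 2979 bp, at Zfhx4. At 8 of these 11 genes the most 5′ TSS had its own peak in all 4 lists, and all of those peaks were above the lower 40% of their lists. For comparison, 10118 of 21924 coding genes had a shared coding promoter peak, and 9418 of the 11103 shared peaks were above the lower 40% of every list. Mlxipl had Gfi1 at percentile 87.9 and 86.0 and Lsd1 at 82.9 and 85.5 at its most 5′ TSS in tumors 39 and 41, the highest mean of the 11 genes, 85.6. Abcb8, at 6935 bp, had Gfi1 at 73.9 and 93.5 and Lsd1 at 69.5 and 91.4. That the site itself stood below these peaks was set by the rule that chose it.

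Zfhx4, St7, Radil, Mapk1ip1l and Srrm2 followed the same pattern. Their mean percentile over the lists at the most 5′ TSS was 79.2, 74.1, 70.9, 70.3 and 65.4, against 24.6, 27.5, 13.7, 29.4 and 24.6 at the internal site. Tmem229b had a peak at its most 5′ TSS in 2 lists, at percentile 71.4 for Gfi1 in tumor 39 and 41.9 for Lsd1 in tumor 41. Myo1h and Fam111a had none there in any list.

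**Figure D3:**
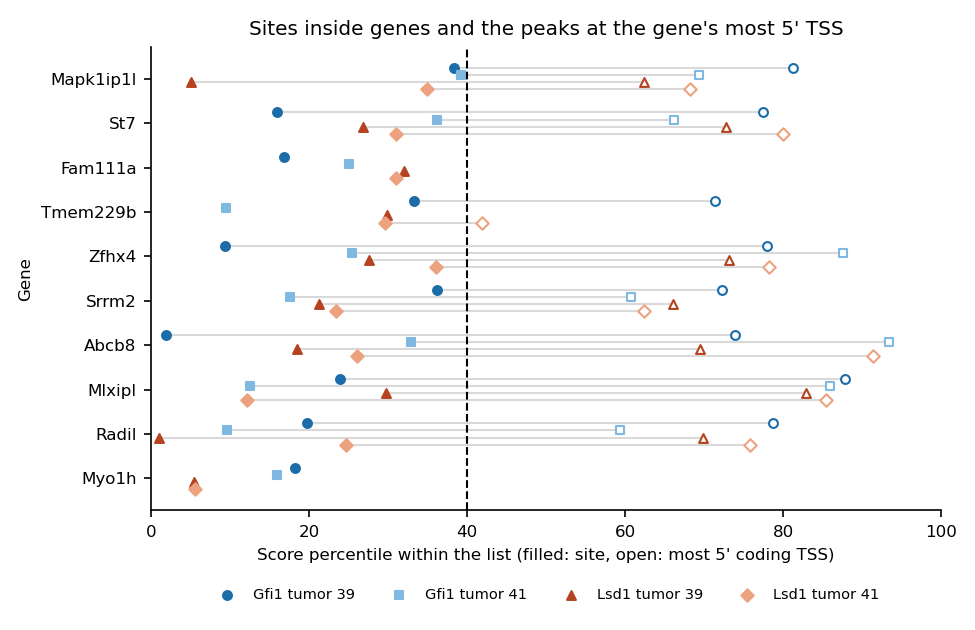
Score percentile (x axis) of 10 of the 11 sites at a TSS inside the gene (filled symbols) and of the highest peak within 1000 bp of the gene's most 5′ coding TSS (open symbols), by gene (y axis) and list (colour and shape), with a dashed line at the limit of 40. Myo1h and Fam111a have no open symbol, Tmem229b has 2, and all open symbols lie to the right of the line.

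A second peak was also found at 2 of the 21 sites that were at the most 5′ TSS. At Msmo1 another peak within 1000 bp of the TSS had Gfi1 at percentile 78.7 and 76.0 and Lsd1 at 89.8 and 86.8 in tumors 39 and 41, and the gap from the low-scoring peak to the next peak was 393, 512, 269 and 343 bp in the Gfi1 and Lsd1 lists of these tumors. At Spg7 another such peak was present in 3 lists, at 88.5 for Gfi1 in tumor 39 and 92.5 and 91.7 for Lsd1. Another Gfi1 peak of tumor 39 above the lower 40% of its list lay within 5 kb at 4 of the 32 sites (12.5%). These were Msmo1, Spg7, Srrm2 and Zfhx4. The share was 30.2% of all shared coding promoter peaks, where that other peak could score below the shared peak itself. The median gap to such a peak was 28410 bp against 14359 bp. For Gm7173 it was 1447262 bp. Another Gfi1 peak of tumor 39 in the lower 40% lay within 5 kb at Abcb8 (504 bp), Radil (1747 bp), Tmem229b (2553 bp) and Myo1h (4842 bp).

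The DNA at these TSSs held fewer CpG dinucleotides than that of higher-scoring promoters. The CpG ratio compares the CG dinucleotides present with the number that the C and G content would give, and it was taken over 500 bp to each side of the TSS. Its median was 0.379 over the 32 sites (quartiles 0.253 and 0.463, 95% interval of the median 0.263 to 0.461), 0.658 over the 3659 sites between the limits and 0.770 over the 7412 high-scoring sites. Over the most 5′ TSSs of 21853 coding genes the median was 0.561, and over the 8046 of these with no peak of any list within 1000 bp it was 0.179. The median of the 32 sites thus lay above that of coding genes without a peak. It lay below those of the sites between the limits and the high-scoring sites. The interval covers counting error only, as the sites share their libraries. It held the median of 0.426 of the 379 shared peaks whose highest percentile over the lists was from 40 to 60. No test was run, as promoters that share libraries and sequence families are not replicates.

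A ratio below 0.4 was found at 19 of the 32 sites (59.4%, exact 95% binomial interval 40.6 to 76.3%), at 18.2% of the sites between the limits and at 4.84% of the high-scoring sites. A ratio of 0.6 or more was found at 3 sites, Msmo1 (0.871), Slc2a12 (0.688) and Zfp182 (0.637), against 84.6% of the high-scoring sites. Msmo1 is the site whose peak ended 854 bp short of the TSS, so that its ratio describes a promoter next to the peak. At the low end stood F10 (0.103), Krtap10-4 (0.133) and Srrm2 (0.165). The total of C and G was lower too, with a median of 52.8% against 60.5% at high-scoring sites. When the ratio was counted over the Gfi1 peak of tumor 39 in place of the window at the TSS, the median was 0.375 at the 32 sites and 0.624 at high-scoring sites.

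**Figure D4:**
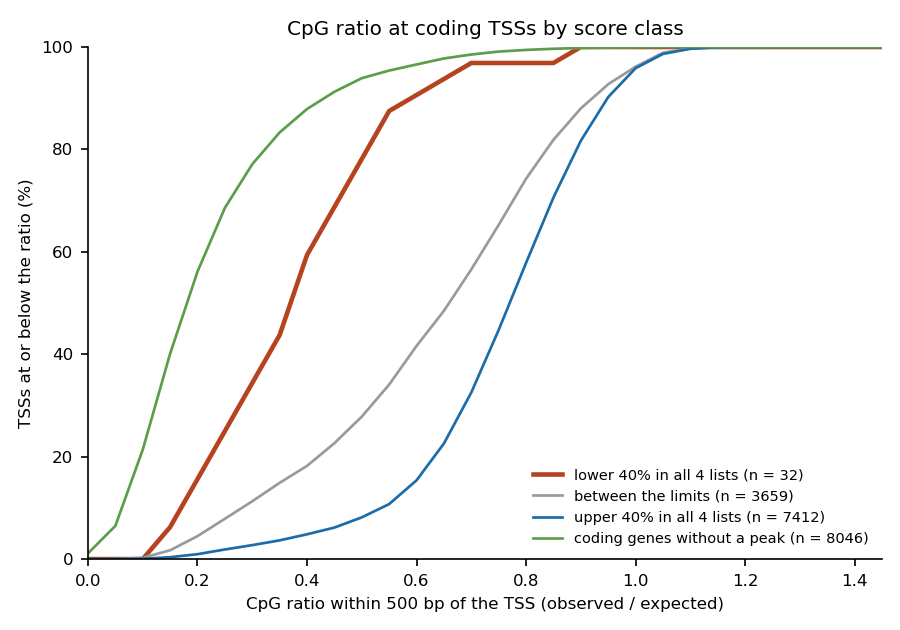
Cumulative share of TSSs (y axis, %) at or below a CpG ratio (x axis, within 500 bp of the TSS) for the 32 sites (red), the 3659 sites between the limits (grey), the 7412 high-scoring sites (blue) and 8046 coding genes without a peak (green). The red line lies between the green and the grey line over most of its course, with 59.4% of the sites below 0.4.

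Position and CpG content went together only in part. The 21 sites at the most 5′ coding TSS had a median ratio of 0.411 (0.103 to 0.871) and the 11 internal sites one of 0.284 (0.165 to 0.461), and the ranges overlapped. The low CpG content was thus present also without the internal starts. It was not a feature of the 32 sites alone either. The 379 shared coding promoter peaks whose highest percentile over the lists was from 40 to 60 had a median ratio of 0.426, those from 60 to 80 had 0.645, those from 80 to 90 had 0.754 and those from 90 to 100 had 0.7996. The quartiles of the 32 sites, 0.253 to 0.463, overlapped those of the 40 to 60 class, 0.290 to 0.553, and lay below those of every class above it.

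Chromosome and orientation were compared in the same way. Of the 32 sites, 3 were X-linked, Armcx1, Gm7173 and Zfp182 (9.38%, exact 95% binomial interval 1.98 to 25.02%), against 4.78% between the limits, 0.607% of the high-scoring sites and 4.34% of all coding genes. A TSS of another gene on the opposite strand within 1000 bp upstream was found at 2 sites (6.25%, interval 0.766 to 20.8%), 2700069I18Rik at Zfhx4 and Gm42852 at St7. The share was 8.94% between the limits, 21.4% of the high-scoring sites and 14.1% of all coding genes. It was 3.43% of the 379 shared peaks whose highest percentile over the lists was from 40 to 60. With 32 sites these shares rest on few counts, and the intervals include the values of all coding genes.

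**Figure D5:**
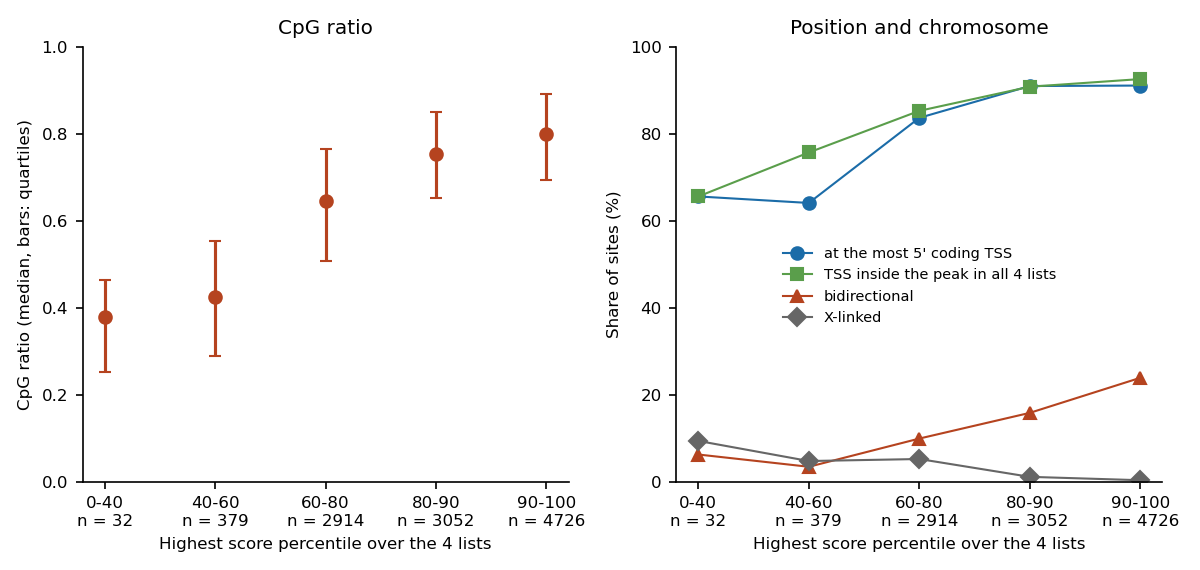
Shared coding promoter peaks in 5 classes of their highest score percentile over the 4 lists (x axis, with the number of sites). The left panel gives the median CpG ratio with quartiles, which runs from 0.379 to 0.7996, and the right panel gives the share of sites (%) at the most 5′ coding TSS, with the TSS inside the peak in all lists, with a bidirectional TSS and on the X chromosome.

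Short motifs were searched on both strands of the 300 bases shown above for each site, and a match is only a description of the letters. The Gfi1 core AATCAC was present at 3 of the 32 promoters, Zfp72, Slc2a12 and Tmem229b (9.38%, exact 95% binomial interval 1.98 to 25.02%), at 7.43% of the high-scoring promoters and at 10.1% of the promoters of all coding genes. The match at Tmem229b lay outside its Gfi1 peak of tumor 39. The extended form AATCACNGC was present in these 300 bases at 0 of 32, which allows up to 10.9%, and at 0.890% of the high-scoring promoters. Within 500 bp of the TSS it was at 2 of 32, Msmo1 and Gm14295 (6.25%, interval 0.766 to 20.8%). That compares with 2.43% of the high-scoring promoters and 2.65% of all coding genes. Over the whole Gfi1 peaks of tumor 39, the core was found in 9 of the 32 peaks with 11 matches, or 0.336 per kb, against 0.310 per kb in high-scoring peaks. The share of peaks with a match was 28.1% against 56.2%, and the peaks themselves had median widths of 980.5 bp and 2360 bp. The extended form was at 0 per kb in the 32 peaks and 0.0255 per kb in high-scoring ones.

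Ryr1 was the single site with more than 1 match, and Slc2a12 had its match nearest to the TSS, 34 bp downstream. The matches are shown with 12 bases on either side, the core is in capitals, and each is read in the direction of its own match, with positions counted from the TSS and upstream negative.
Ryr1 at 223 bp from the TSS (chr7:29124916-29124945): aagtaagcaagaAATCACccaagacctccg
Ryr1 at -475 bp (chr7:29125614-29125643): cccttgctgcagAATCACacagttgtagct
Ryr1 at -528 bp (chr7:29125667-29125696): cattaaaaaaaaAATCACttagtaccagac
Slc2a12 at 34 bp (chr10:22645033-22645062): aagttggttacaAATCACactggctttgcc
None of the 11 matches continued into the extended form.

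Of the other promoter motifs, the GC box GGGCGG, which Sp1 family factors bind, was present at 7 of the 32 promoters (21.9%, exact 95% binomial interval 9.28 to 39.97%), against 70.2% of the high-scoring promoters and 43.8% of all coding genes. Over the whole Gfi1 peaks of tumor 39 it was also the rarer at the sites, at 0.826 per kb against 1.78 per kb in high-scoring peaks. The TATA box TATAAA was present at 8 of the 32 promoters (25%, interval 11.5 to 43.4%), against 5.10% of the high-scoring promoters and 12.6% of all coding genes. Among these were the promoters of Ccdc83, Rab3b, Zfp182, Krtap10-4, Srrm2, Zfhx4 and Tmem229b. Within 500 bp of the TSS the TATA box was at 43.8% against 17.4% and 32.0%, but over the whole peaks the order turned, with 0.336 per kb at the sites and 0.376 per kb in high-scoring peaks. Near the TSS the TATA box was thus more frequent than at high-scoring promoters, and over whole peaks it was not. Its intervals near the TSS, 11.5 to 43.4% and, within 500 bp, 26.4 to 62.3%, included the shares of all coding genes. At Srrm2, Zfhx4 and Tmem229b the TSS lay beside the Gfi1 peak of tumor 39, by 313, 277 and 226 bp. The promoter bases searched thus lay outside that peak at Srrm2 and Zfhx4 and mostly outside it at Tmem229b. At the other promoters named here the TSS lay inside it.

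The CCAAT box, searched as CCAAT, depended on the window. In the 300 bases it was present at 12 of the 32 promoters (37.5% against 38.7% of high-scoring promoters and 38.97% of all coding genes). Within 500 bp of the TSS it was at 90.6% (interval 74.98 to 98.0%), against 65.7% and 70.5%, and over whole peaks it was at 1.83 per kb against 1.29 per kb. The ETS motif CCGGAAG was found in the 300 bases at 1 site, Gm14295, against 20.9% of the high-scoring promoters and 10.96% of all coding genes. Within 500 bp it was at 15.6% of the sites, against 33.2% and 19.2%, and over whole peaks at 0.183 per kb against 0.225 per kb.

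The E-box CACGTG, bound by Myc with Max, was present in the 300 bases at 5 of the 32 (15.6%, interval 5.28 to 32.8%), Gm7173, Armcx1, Lrrc71, Krtap10-4 and Zfhx4, against 11.2% of the high-scoring promoters and 7.71% of all coding genes. The CRE TGACGTCA was present at 3, Zfp72, Slc45a1 and St7 (9.38%, interval 1.98 to 25.02%), against 3.83% and 2.46%. The NRF1 motif GCATGCG was present at 1, Zfp182, against 7.69% and 4.69%. Over whole peaks its order turned, with 0.1835 per kb at the sites and 0.1265 per kb in high-scoring peaks. The E-box, CRE and NRF1 motifs contain a CG, as do the GC box, the ETS and the YY1 motif, and the E-box and CRE were not the rarer at the sites. The AP-1 motif TGANTCA and the YY1 motif AAGATGGCG were present at 0 of 32, which allows up to 10.9%, above their shares at high-scoring promoters (3.59% and 4.13%). Over whole peaks AP-1 was in 4 of the 32, at 0.1223 per kb against 0.2105 per kb in high-scoring peaks, and YY1 was in 0.

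The sites were also set against 23 gene lists and 7 lists of cell type markers. Sites were found in 3 of these lists, the Zfp genes, solute carriers and Rab genes named above, which held 8 of the 32 sites. The other 27 lists held none. Among them were the cytosolic ribosomal proteins, of which 60 had a shared coding promoter peak and 57 (95%) were in the upper 40% of all lists. The same counts were 40 of 43 (93.0%) for DNA repair genes and 45 of 56 (80.4%) for genes of DNA replication and mitosis. For the genes of the Lsd1-CoREST complex and SNAG repressors they were 13 of 19 (68.4%). Over all coding genes with such a peak the share was 71.0%. Of 30 markers of neural stem cells, granule neurons, other brain cells, blood and endothelium, 8 had a shared coding promoter peak and none was among the sites. At the overall share of 0.316% a list of this size would rarely hold a site, so that an empty list is not a result about its genes.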

How the data were processed

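Gfi1 and Lsd1 ChIP-seq peaks of 2 MG tumors were used, 1 list per library and 4 in all. Reads were aligned to mm10 with BWA 0.6.2 and handled with FastQC and Picard, per the submitters' processing notes, and the authors called peaks per library with MACS at default parameters against input. The deposited lists give positions and a peak score, used here only as a rank within its list. Library depth and input reads were not analysed here, and neither was expression.

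TSSs of protein-coding transcripts came from GENCODE M21, where the authors used M9. A site took the gene of its closest coding TSS, and overlap required 1 bp. Sequences were read from the RefSeq copy of GRCm38, the build of mm10, in which every peak lay within its chromosome. The same tumors gave both factors, and with 2 tumors and a rule that used all scores no test was run. Intervals are exact binomial (Clopper-Pearson) intervals at 95% and cover counting error only. An interval of a median was taken from order statistics.

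The members, gene lists and motifs were chosen with earlier results of these data known. The rule for named genes took the lowest and highest mean percentiles, the widest and narrowest ranges, the extremes of CpG ratio, the longest genes, the list members and the sites next to the limit. The remaining members were added to this naming with their values known. Values of 1 site are not reported here, though it is part of all counts. The search for sites was tested on simulated data. Alternatives varied the score limit, the TSS window and class, the overlap, the list that supplied the peaks, the lists required and the motif window. Python 3.11.15, numpy 2.4.6, scipy 1.17.1, pysam 0.24.0, matplotlib 3.10.9 and samtools 1.23.1 were used.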

Additional observations from a re-analysis of the deposited data

How the results depend on the processing

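The number of sites depended most on how strict the rule was. With the lower 30% of each list as the limit, 8 sites were left (0.0721% of shared coding promoter peaks), with 0% bidirectional, 100% with the TSS inside the peak in all 4 lists and 3 in the gene lists. With the lower 50%, 118 sites were found (1.06%), with 18 in the gene lists. Requiring 3 lists in place of 4 adds sites by construction. The number was 140 without Gfi1 of tumor 39, 124 without Gfi1 of tumor 41, 62 without Lsd1 of tumor 39 and 77 without Lsd1 of tumor 41, so from 62 to 140 (0.551% to 1.20%), with 12 to 21 in the gene lists, and all 32 sites remained in each. With the TSS required inside the Gfi1 peak of tumor 39, 91.3% of 23 sites had it inside in all 4 lists. Within 500 bp on either side of the TSS, the share with a match was 28.1% for the Gfi1 core (21.05% of high-scoring promoters and 27.4% of all coding genes), 90.6% for the CCAAT box (65.7% and 70.5%), 43.8% for the TATA box (17.4% and 32.0%) and 15.6% for AP-1 (12.6% and 18.6%). The median CpG ratio stayed between 0.322 and 0.454 under all these alternatives, and the share at the most 5′ coding TSS between 48.8% and 73.9%. No paired analysis was possible because the result comes from no test. Read depth per peak is unknown, so the scores could not be set against it.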
